A study of Mus musculus with 3 samples.

Results

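The histone genes of the replication clusters, named Hist1h, Hist2h, Hist3h and Hist4h with a letter for the type, encode the core histones H2a, H2b, H3 and H4, which wrap DNA into nucleosomes, and the linker histone H1, which binds between nucleosomes. Most are transcribed while DNA is copied, and their mRNA usually ends in a short stem-loop, bound by the stem-loop binding protein Slbp, instead of a poly(A) tail. Some of the genes can also be read through to a later site and given a poly(A) tail, a form known from cells that have left the cell cycle. The 10x droplet assay primes RNA from poly(A), so mRNA that ends at the stem-loop is poorly captured, and a level here is that of captured molecules and not of all mRNA of a gene.

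Every gene whose symbol starts with one of these 4 prefixes was taken, which gave 67 of the 31053 genes in the matrices. They comprise 6 H1, 18 H2a, 18 H2b, 12 H3 and 13 H4 genes. Of these, 62 had at least 1 unique molecular identifier (UMI, the tag that marks a captured RNA molecule) in some library, 38 had at least 20 and 8 had at least 500. Hist1h2bq, Hist1h2ah, Hist1h4m, Hist1h4b and Hist1h2ba had none.

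Cells came from C57BL/6 mouse cortex, labelled embryonic day 14.5, and formed 3 groups of 1 library each. MIM-Astrocyte cells were astrocyte cultures moved for up to 5 days into a serum-free medium with FGF2 (20 ng/mL) and up to 6 metabolites, namely the amino acids methionine, glycine, cysteine and threonine, the polyamine putrescine, and the methyl donor S-adenosylmethionine. Astrocyte cells stayed in medium with 10% serum, and neural stem cells (NSC) grew as neurospheres with EGF and FGF2 at 20 ng/mL each. The metabolites used, the day of collection, and whether the astrocytes came from postnatal day 4 pups or from neurospheres are not given in the sources used here; serum, base medium, FGF2 and metabolites all differ between MIM-Astrocyte and Astrocyte cells and cannot be told apart.

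After filtering, the MIM-Astrocyte library held 14964 cells with a median of 3156 UMIs, the Astrocyte library 9818 cells with 5089 and the NSC library 9145 cells with 1379. The nuclear RNA Malat1 took 9.44%, 13.7% and 26.9% of UMIs in the MIM-Astrocyte, Astrocyte and NSC libraries, a difference that moves every level given as a share of UMIs. Pairs of libraries shared 25 to 43 cell barcodes, and 0 barcodes were in all 3. The 7 astrocyte markers summed to 955, 2044 and 603 UMIs per 1000000 UMIs (CPM) and the 6 neural progenitor markers to 10436, 2037 and 4547 CPM in MIM-Astrocyte, Astrocyte and NSC cells. The 6 oligodendrocyte lineage markers summed to 628, 140 and 762 CPM and the 6 neuron markers to 5.52, 28.4 and 24.8 CPM. Members did not all move with their sum. The 2-fold rule given below put 3 of 7 astrocyte markers higher and 1 lower in Astrocyte cells over NSC (median log2 −0.12). MIM-Astrocyte over Astrocyte cells had 1 higher and 3 lower (−0.19). Of 6 progenitor markers, 1 was higher and 3 lower in MIM-Astrocyte cells over NSC, unlike their sum. The oligodendrocyte list had 2 higher and 1 lower in MIM-Astrocyte over Astrocyte cells, the neuron list 2 and 3 in Astrocyte cells over NSC. Microglia, endothelial and fibroblast markers stayed at or under 2.23 CPM in each library, while 5 smooth muscle and pericyte markers summed to 6.76, 293 and 23.2 CPM; the part of such cells in the values below was not tested. Levels were read from UMIs summed over cells, so these values do not separate fewer expressing cells from less RNA per cell. With 1 library a group there is no replicate check and no test between groups, and all intervals are 95% intervals that cover counting error alone.

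All 67 genes were found in the GENCODE annotation of mouse build GRCm38 (mm10), 54 on chromosome 13, 10 on chromosome 3, 2 on chromosome 11 and 1 on chromosome 6. A stem-loop core, a stem of 6 paired bases around a loop of 4, was found in the annotated transcripts of 44 of the 67 genes, against 55 of all 21901 protein-coding genes (0.251%). The 44 genes held 6 different cores. The cores of 6 genes with many UMIs are shown in capitals with up to 5 flanking bases, since the letters differ by histone type and the position of the core in the transcript varies.

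Hist1h1c: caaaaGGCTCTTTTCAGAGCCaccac

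Hist1h1e: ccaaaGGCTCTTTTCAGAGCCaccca

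Hist3h2a: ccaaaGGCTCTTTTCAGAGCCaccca

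Hist3h2ba: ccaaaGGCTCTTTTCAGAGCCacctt

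Hist1h4h: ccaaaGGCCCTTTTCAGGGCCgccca

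Hist1h4i: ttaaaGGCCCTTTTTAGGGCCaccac

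The core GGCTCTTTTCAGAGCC was the most frequent, in 26 genes of types H1, H2a, H2b and H3. The 7 genes with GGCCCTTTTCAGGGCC were all H4 genes. Hist1h4i (chr13:22040636-22041362, minus strand) and Hist2h4 shared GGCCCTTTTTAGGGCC.

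The genes fell into 3 classes by what follows the core. In 22 genes the annotated transcript ended at most 74 bases after it; these genes held 1068 UMIs together, 0.741% of all histone UMIs, with a median of 11 UMIs a gene. In another 22 genes it ran 151 to 4884 bases past the core; they held 31757 UMIs (22.0%), with a median of 148.5, and 21 of the 22 reached 20 UMIs against 8 of the 22 genes that end soon after it. Hist1h4i, Hist1h1c, Hist3h2ba, Hist3h2a and Hist1h1e were in the class that runs on. In 23 genes no core was found; they held 77.2% of histone UMIs, or 1.14% with Hist1h2bc left out, and include genes such as Hist1h1b, whose transcript is annotated with a 3′ untranslated region of 0 bases.

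**Figure D1:**
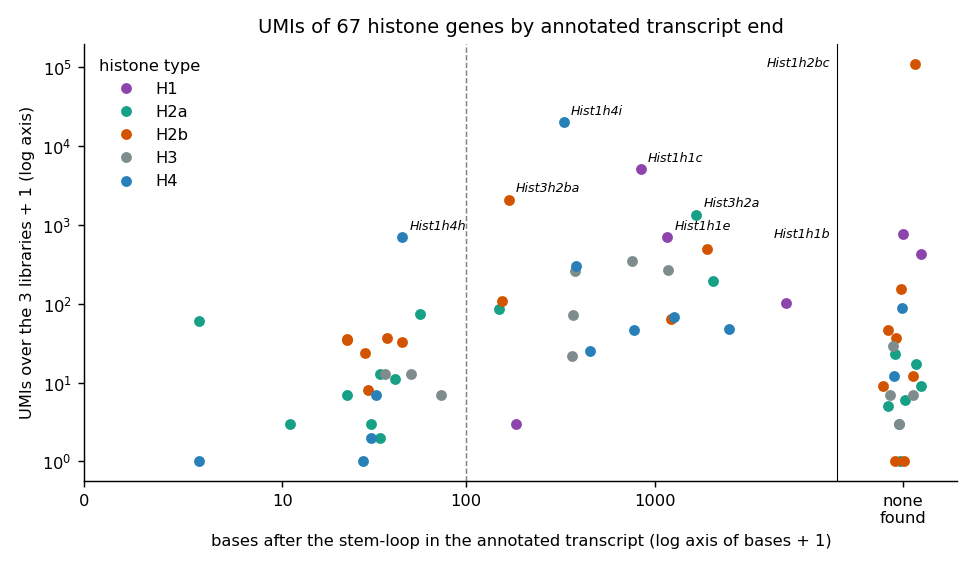
Each point is 1 of the 67 genes, with its UMIs over the 3 libraries plus 1 (vertical log axis) against the annotated bases after the stem-loop plus 1 (horizontal log axis), coloured by histone type; the dashed line is at 100 bases and genes with no stem-loop found are at the right. Genes that end within 100 bases of the stem-loop have a median of 11 UMIs and those that run on a median of 148.5, while Hist1h2bc, with no stem-loop found, is the highest.

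Promoter sequence of 250 bases upstream of the start was present in the RefSeq table (GRCm38.p6) for 62 of the genes. Hist1h1b and Hist1h1c are shown because their levels moved differently with the cell cycle genes described below. Capitals mark, on either strand, the CCAAT box (CCAAT), the TATA box (TATAAA), the AC box known from H1 promoters (AAACACA) and the octamer core known from H2b promoters (TTTGCAT).

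Hist1h1b (chr13:21780626-21780875, minus strand): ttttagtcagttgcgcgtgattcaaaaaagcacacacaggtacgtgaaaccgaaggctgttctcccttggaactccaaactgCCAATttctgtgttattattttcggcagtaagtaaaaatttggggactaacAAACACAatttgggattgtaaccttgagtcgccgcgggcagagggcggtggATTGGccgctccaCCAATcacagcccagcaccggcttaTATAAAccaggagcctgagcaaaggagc

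Hist1h1c (chr13:23738557-23738806, plus strand): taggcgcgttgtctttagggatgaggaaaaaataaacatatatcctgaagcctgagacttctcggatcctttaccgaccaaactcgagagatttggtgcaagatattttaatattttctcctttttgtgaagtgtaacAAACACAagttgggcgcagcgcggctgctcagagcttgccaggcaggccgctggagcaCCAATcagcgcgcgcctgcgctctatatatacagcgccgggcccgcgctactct

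The AAACACA letters were in 5 of 6 H1 promoters and in 9 of all 62, against 6.25% of 32851 mouse promoters of the same length; both H1 genes shown hold them. TTTGCAT was in 7 of 18 H2a, 6 of 16 H2b and 1 of 12 H4 promoters and in none of the H1 or H3 promoters, against 4.12% of all promoters. CCAAT was in 51 of 62 histone promoters (82.3%) and in 33.8% of all, and it was in 3 of the 12 H4 promoters. TATAAA was in 29 of the 62, against 12.4% of all.

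Histone UMIs were dominated by few genes. The 67 genes together made up 0.129% of all UMIs in MIM-Astrocyte cells, 0.149% in Astrocyte cells and 0.0240% in NSC, with 65433, 75216 and 3528 UMIs. Hist1h2bc, an H2b gene (chr13:23684199-23692908, plus strand) whose annotated transcript has 2 exons, a 3′ untranslated region of 742 bases and no stem-loop core, held 83.5% of histone UMIs in MIM-Astrocyte cells, 71.0% in Astrocyte cells and 47.9% in NSC. The 8 genes with at least 500 UMIs held 97.4% of all histone UMIs. These are shares of UMIs and not of transcripts, since the genes are not captured alike.

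Among the linker histones, Hist1h1c (chr13:23738808-23740367, plus strand), a somatic H1 subtype, was the most abundant. It stood at 50.8 CPM (interval 48.8 to 52.8) in MIM-Astrocyte cells, 43.1 CPM (41.3 to 44.9) in Astrocyte cells and 22.9 CPM (20.5 to 25.5) in NSC. Hist1h1b (chr13:21779883-21780625, minus strand), another somatic subtype, stood at 11.3 CPM (10.4 to 12.2), 1.13 CPM (0.853 to 1.46) and 8.51 CPM (7.08 to 10.1) in the same order, lowest in Astrocyte cells. Hist1h1e stood at 5.85 CPM in MIM-Astrocyte cells, 3.56 CPM in Astrocyte cells and 14.8 CPM in NSC, and Hist1h1a at 4.56, 2.63 and 4.49 CPM. The annotated Hist1h1e gene overlaps that of Hist1h2be, an H2b gene, on the same strand, and all of its end windows of 60 bases occur in another gene too, so its values are uncertain. With Hist1h1c left out the H1 genes summed to 22.3 CPM in MIM-Astrocyte cells, 8.36 CPM in Astrocyte cells and 29.2 CPM in NSC, and with Hist1h1b left out too to 11.02, 7.23 and 20.7 CPM. Hist1h1e held 298 of 561, 180 of 366 and 218 of 304 UMIs of this last sum, which is therefore uncertain too. Sums without a second gene, here and below, were chosen after seeing the data.

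Hist1h2bc stood at 1073 CPM (1064 to 1082) in MIM-Astrocyte cells and 1056 CPM (1047 to 1065) in Astrocyte cells, against 115 CPM (110 to 121) in NSC. In UMIs per cell this was 3.65, 5.44 and 0.185. Hist3h2ba (chr11:58948920-58949533, plus strand), the next H2b gene, ran the other way, at 14.2 CPM in MIM-Astrocyte cells, 17.2 CPM in Astrocyte cells and 33.9 CPM in NSC. The 16 remaining H2b genes, summed without these 2, stood at 7.25, 12.6 and 5.45 CPM. The H2a genes summed to 14.6, 17.5 and 14.6 CPM, most of it from Hist3h2a (chr11:58954685-58956830, plus strand), the H2a neighbour of Hist3h2ba, at 10.9, 13.7 and 7.01 CPM.

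Among the H4 genes, Hist1h4i was highest in Astrocyte cells. It stood at 86.0 CPM (83.5 to 88.6) in MIM-Astrocyte cells, 307 CPM (302 to 312) in Astrocyte cells and 8.31 CPM (6.90 to 9.92) in NSC, and took 6.69%, 20.7% and 3.46% of histone UMIs. Hist1h4h followed at 6.27, 7.27 and 0.885 CPM. The H3 genes together stood at 9.29 CPM in MIM-Astrocyte cells, 9.13 CPM in Astrocyte cells and 6.60 CPM in NSC, with no single H3 gene at 500 UMIs.

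**Figure D2:**
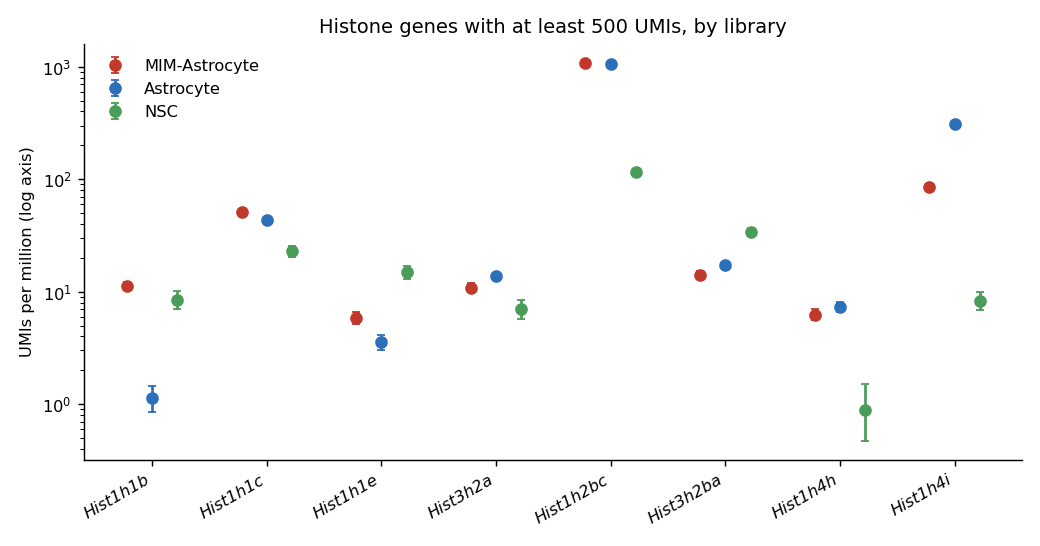
Level (CPM, log axis) of the 8 histone genes with at least 500 UMIs in the MIM-Astrocyte (red), Astrocyte (blue) and NSC (green) libraries, with 95% counting intervals. Hist1h2bc is near 1000 in both astrocyte libraries and 115 in NSC, and Hist1h1b is lowest in Astrocyte cells at 1.13.

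Libraries were compared by the log2 ratio of CPM after adding 1 CPM to each, over genes with at least 20 UMIs in the pair of libraries; a gene was called at a ratio of at least 2-fold. In MIM-Astrocyte over Astrocyte cells 34 histone genes were measured, of which 1 was called higher and 3 lower, while over all 13876 measured genes 8.49% were called higher and 15.2% lower. The 1 higher gene was Hist1h1b, with 573 UMIs in MIM-Astrocyte and 57 in Astrocyte cells, 9.99-fold higher (7.60 to 13.4). The lower genes were Hist1h4i at 0.280-fold (0.271 to 0.290, log2 ratio −1.82), Hist1h4j, with 33 UMIs in MIM-Astrocyte and 261 in Astrocyte cells (log2 ratio −1.90), and Hist2h2be, with 17 and 122 UMIs (−1.35). The median log2 ratio was −0.13 over the 34 histone genes and −0.19 over all measured genes. With TMM or DESeq2 scaling 2 were higher and 3 lower, and these scalings moved the median of all genes by 0.18 and 0.17. Counts under other settings, here and below, stand without the share of all genes called under the same setting. For that reason they are no result about the histone genes.

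Hist1h2bc did not differ 2-fold between MIM-Astrocyte and Astrocyte cells, at 1.02-fold (1.00 to 1.03); without Malat1 in the totals the sign of its log2 ratio changed. The H4 genes without Hist1h4i and Hist1h4j summed to 7.60 CPM in MIM-Astrocyte and 10.8 CPM in Astrocyte cells, 0.707-fold (0.619 to 0.807). Among the H1 genes 1 of 5 measured was called: Hist1h1e was 1.65-fold, Hist1h1a 1.73-fold, Hist1h1c 1.18-fold and Hist1h1d 0.544-fold, and the sum without Hist1h1c and Hist1h1b was 1.52-fold (1.33 to 1.74). Much of that sum came from Hist1h1e, whose values are uncertain. Hist1h2ae, an H2a gene, had 58 UMIs in MIM-Astrocyte and 8 in Astrocyte cells, and Hist1h2ap, another, had 29 and 0. Hist1h2ap was 9.61-fold higher with the 0 set to a floor of 3 UMIs, and at least 7.33-fold higher by the counting interval. Both genes missed the 2-fold call once 1 CPM was added, with log2 ratios of 0.89 and 0.65. All end windows of Hist1h2ap occur in other genes, so its counts are uncertain.

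In Astrocyte cells over NSC 32 histone genes were measured, with 7 called higher and 4 lower, against 19.9% higher and 22.6% lower of all 13647 measured genes. Hist1h4i was 37.0-fold higher (31.0 to 44.6) and Hist1h2bc 9.17-fold higher (8.74 to 9.63). The other 5 higher genes were the H4 genes Hist1h4j (261 UMIs in Astrocyte cells and 2 in NSC) and Hist1h4h (8.22-fold), the H3 genes Hist1h3d (155 and 4 UMIs) and Hist2h3c2 (155 and 6 UMIs), and the H2b gene Hist1h2be (5.36-fold). The overlap with Hist1h1e given above makes the values of Hist1h2be uncertain too. The lower genes were Hist1h1b at 0.132-fold (0.0950 to 0.183), Hist1h1e at 0.240-fold, Hist1h3e with 14 UMIs in Astrocyte cells and 34 in NSC, and Hist1h2ap with 0 and 30 UMIs. Hist1h2ap was 34.4-fold lower with the 0 set to the same floor, and at least 26.3-fold lower by the counting interval. The median was 0.38 over the histone genes and −0.03 over all measured genes. Totals without mitochondrial and ribosomal protein genes, or without Malat1, gave 7 higher and 7 lower and moved the median of all genes by −0.11 and −0.21; TMM and DESeq2 scaling moved it by 0.13 and 0.15.

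In MIM-Astrocyte cells over NSC 31 histone genes were measured, with 6 called higher and 3 lower, against 9.29% higher and 20.5% lower of all 13097 measured genes. Hist1h4i was 10.4-fold higher (8.65 to 12.5), Hist1h2bc 9.32-fold (8.88 to 9.79), Hist1h4h 7.08-fold (4.08 to 13.4), Hist2h3c2 4.57-fold (2.02 to 12.8) and Hist1h1c 2.22-fold (1.98 to 2.49); Hist1h3d had 187 UMIs in MIM-Astrocyte cells and 4 in NSC. Hist3h2ba was lower at 0.418-fold (0.373 to 0.470), Hist1h1e at 0.394-fold and Hist1h3e with 22 UMIs in MIM-Astrocyte cells and 34 in NSC. Hist1h1b was 1.32-fold (1.09 to 1.62) and Hist1h1a 1.01-fold (0.769 to 1.35), neither called. The calls split 4 higher and 6 lower without Malat1 in the totals and 8 higher and 1 lower with TMM or DESeq2 scaling, which moved the median of all genes by −0.26, 0.31 and 0.32. The 3 library comparisons share their libraries, so a gene set apart in one library is set apart in 2 of them.

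To follow the histone genes through the cell cycle, cells with at least 2 UMIs of Pclaf plus Tk1 were set apart from the other cells of their library. Pclaf encodes a factor bound to the replication clamp PCNA, Tk1 is the thymidine kinase that makes a DNA precursor, and both are known from S phase, when DNA is copied. The rule took 3329 of 14964 MIM-Astrocyte cells (22.2%, exact interval 21.6 to 22.9) and 331 of 9145 NSC (3.62%, 3.25 to 4.02). It took 0 of 9818 Astrocyte cells, which allows a share of up to 0.0306% by the limit of 3 counts and 0.0376% by the exact interval; 12 Astrocyte cells had 1 such UMI. With every cell thinned to 1000 UMIs, it took 1333 of 13991 MIM-Astrocyte cells, 0 of 9467 Astrocyte cells and 167 of 7688 NSC.

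A list of DNA replication genes that holds neither Pclaf nor Tk1 checked the label. Of its measured members, 47 of 47 were called higher in Pclaf/Tk1 cells than in other cells of the MIM-Astrocyte library and 26 of 27 in NSC. The rule did not isolate S phase from what follows it: 2715 of the 3329 MIM-Astrocyte cells and 222 of the 331 NSC also had at least 2 UMIs of Ube2c plus Prc1, genes known from mitosis. Pclaf/Tk1 cells were deeper, with medians of 4678 UMIs against 2846 in other MIM-Astrocyte cells and 2572 against 1364 in other NSC, and Malat1 took 6.88% against 10.6% and 19.6% against 27.5%. The alternative settings summarised at the end include other cells weighted to the depth of Pclaf/Tk1 cells and totals without Malat1. They also include groups without cells that had at least 2 UMIs of Ube2c plus Prc1. Beyond these and the values given with each comparison, the part of depth, Malat1 and mitotic cells was not tested.

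Within the MIM-Astrocyte library, the linker histone genes Hist1h1b and Hist1h1a were higher in Pclaf/Tk1 cells, while the most abundant histone genes, Hist1h2bc and Hist1h4i, were lower. Of 23 histone genes measured, 2 were called higher and 4 lower, against 5.55% and 1.01% of all 12492 measured genes. Hist1h1b stood at 21.1 CPM in Pclaf/Tk1 cells and 6.87 CPM in other cells, 3.07-fold (2.60 to 3.64), and Hist1h1a at 7.65 and 3.18 CPM, 2.41-fold (1.84 to 3.14). Hist1h1e was 1.89-fold (1.49 to 2.38), under the call. Hist1h1c, at 49.5 CPM in Pclaf/Tk1 cells and 51.3 CPM in other cells, had a ratio of 0.965 with an interval of 0.886 to 1.05.

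Hist1h2bc stood at 602 CPM in Pclaf/Tk1 cells and 1282 CPM in other MIM-Astrocyte cells, 0.469-fold (0.459 to 0.480). Hist1h4i stood at 44.3 and 105 CPM, 0.424-fold (0.390 to 0.460). The 2 further lower genes were Hist1h3d, with 23 UMIs in Pclaf/Tk1 cells and 164 in other cells (0.315-fold, 0.194 to 0.489), and Hist1h4h, with 46 and 273 UMIs (0.378-fold, 0.271 to 0.519). Hist3h2a was 0.601-fold and Hist3h2ba 0.692-fold, neither called. Pclaf/Tk1 cells under 2 UMIs of Ube2c plus Prc1, a group chosen after seeing the data, gave 0 higher and 1 lower of 11 genes measured. With 1 UMI of Pclaf plus Tk1 as the threshold 1 gene was called higher and 0 lower. The shares of all genes called under these settings are not given here, so the counts are not read further.

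In NSC 7 histone genes had enough UMIs to be measured, 2 were called higher and 0 lower, against 4.2% higher and 3.49% lower of all 9061 measured genes. Hist1h1b stood at 66.5 CPM in Pclaf/Tk1 cells and 3.83 CPM in other NSC, 17.4-fold (12.01 to 25.3), from 73 and 52 UMIs. Hist1h1e stood at 38.2 and 12.9 CPM, 2.95-fold (2.06 to 4.16). Hist1h1a, with 26 UMIs in Pclaf/Tk1 cells and 40 in other NSC, was under the minimum. Hist1h1c had a ratio of 0.995 (0.634 to 1.496), Hist1h2bc of 0.745 (0.600 to 0.916) and Hist1h4i of 1.23 (0.595 to 2.28). Without the 8% of cells with the most UMIs, or with cells thinned to 1000 UMIs, 0 genes were called higher in NSC, of 3 and 2 measured, which no longer included Hist1h1b. The 59 genes under 500 UMIs, most of them too low to measure one by one, summed to 87.4 CPM in Pclaf/Tk1 cells and 24.0 CPM in other NSC, 3.64-fold (2.87 to 4.59), against 29.8 and 26.4 CPM, 1.13-fold (1.01 to 1.27), in the MIM-Astrocyte library. Without Hist1h1a, which held the most of these UMIs, the ratio was 3.03 (2.30 to 3.95) in NSC and 0.957 (0.842 to 1.09) in the MIM-Astrocyte library.

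**Figure D3:**
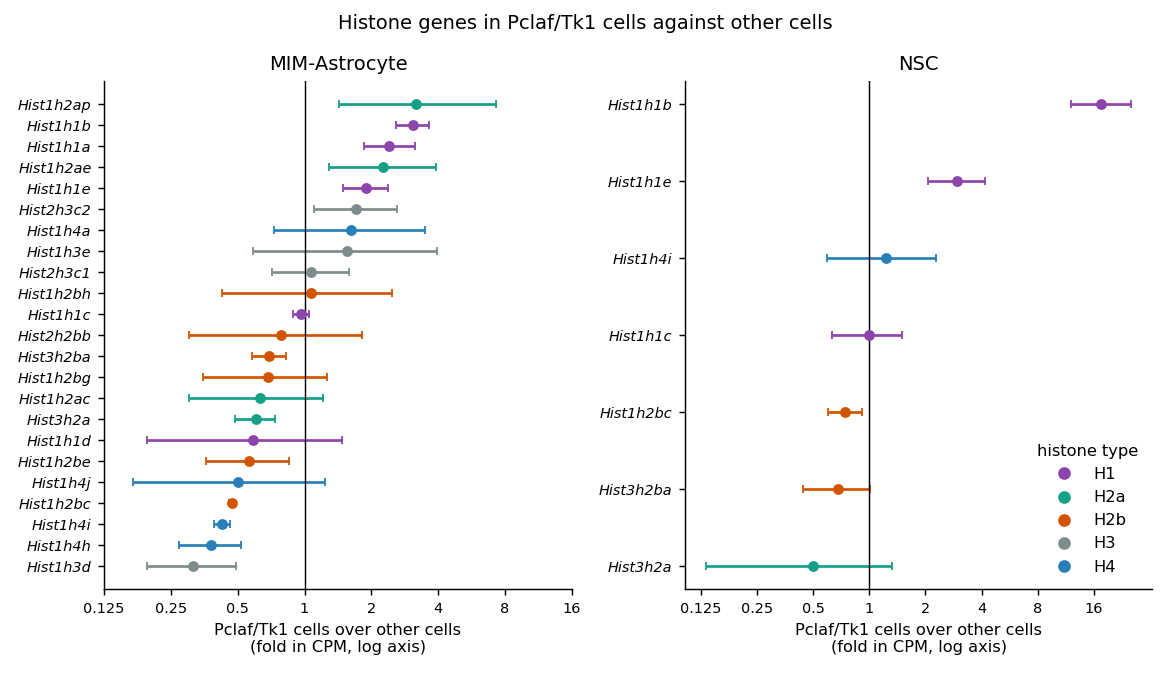
Ratio of CPM in Pclaf/Tk1 cells over other cells (log axis, 95% counting intervals) for every histone gene measured in the MIM-Astrocyte (left, 23 genes) and NSC (right, 7 genes) libraries, coloured by histone type. Hist1h1b is at 3.07 and 17.4 and Hist1h1c close to 1 in both, while Hist1h2bc and Hist1h4i are at 0.469 and 0.424 in MIM-Astrocyte cells.

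By type, H1 genes took 11.3% of histone UMIs in MIM-Astrocyte Pclaf/Tk1 cells (10.7 to 11.8) and 4.41% in other MIM-Astrocyte cells (4.24 to 4.59). In NSC they took 44.9% of histone UMIs in Pclaf/Tk1 cells (39.8 to 50.1) and 18.9% in other cells (17.6 to 20.3). A share also moves with the other types: the H1 level was 87.4 CPM in Pclaf/Tk1 and 66.7 CPM in other MIM-Astrocyte cells, 1.31-fold (1.22 to 1.40), and 153 and 43.9 CPM in NSC, 3.48-fold (2.92 to 4.14). H2b genes took 79.7% in Pclaf/Tk1 and 86.4% in other MIM-Astrocyte cells, and 37.2% in Pclaf/Tk1 and 67.5% in other NSC. The H2b level was 619 CPM in Pclaf/Tk1 and 1306 CPM in other MIM-Astrocyte cells, 0.474-fold (0.463 to 0.484), and 127 and 157 CPM in NSC, 0.808-fold (0.675 to 0.959) and not called. Most of these H2b UMIs came from Hist1h2bc, and without it the NSC ratio was 0.995 (0.711 to 1.36). With Hist3h2ba left out too, the 16 remaining H2b genes had a ratio of 3.34 (1.83 to 5.78) in NSC, from 17 and 63 UMIs. In the MIM-Astrocyte library their ratio was 0.812 (0.638 to 1.03). The H2a genes without Hist3h2a stood at 31.0 CPM in Pclaf/Tk1 cells and 5.74 CPM in other NSC, 5.39-fold (3.49 to 8.17), and at 4.91 and 3.24 CPM in the MIM-Astrocyte library, 1.52-fold (1.12 to 2.04). With Hist1h2ap, whose counts are uncertain, left out too, the ratio was 4.82 (2.84 to 7.93) in NSC. In the MIM-Astrocyte library it was 1.32, with an interval of 0.944 to 1.84 that includes no change.

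**Figure D4:**
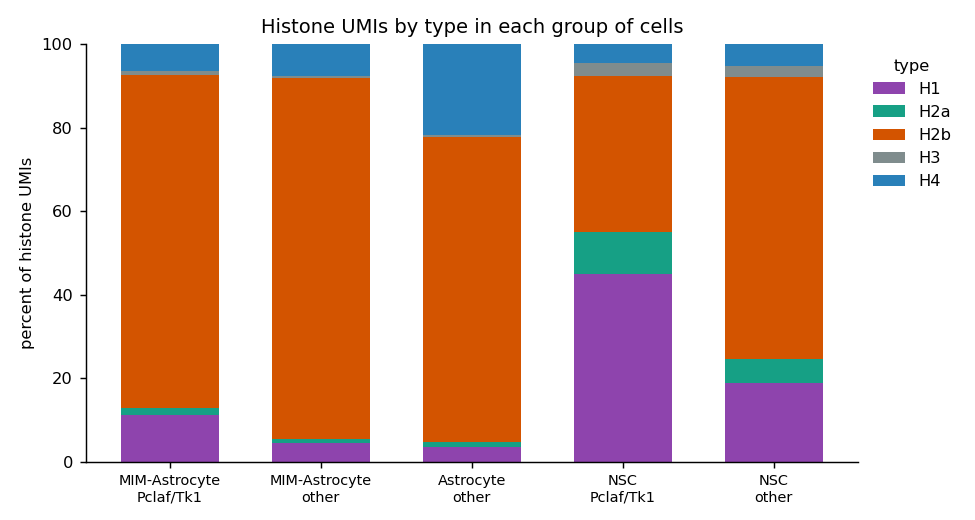
Percent of histone UMIs from each histone type (stacked bars that sum to 100) in Pclaf/Tk1 and other cells of the MIM-Astrocyte, Astrocyte and NSC libraries; the Astrocyte library has no Pclaf/Tk1 cells. H1 takes 11.3% and 44.9% in the Pclaf/Tk1 cells of MIM-Astrocyte and NSC and 3.46% in Astrocyte cells, and H4 takes 21.7% in Astrocyte cells.

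The levels were also read by the number of Pclaf plus Tk1 UMIs in a cell. In MIM-Astrocyte cells Hist1h1b stood at 6.97, 6.42, 7.06, 16.8 and 32.5 CPM in cells with 0, 1, 2 to 3, 4 to 7 and 8 or more such UMIs, so cells just over the threshold did not stand above those just under it. In NSC it stood at 3.55, 9.38, 44.6, 75.7 and 107.1 CPM over the same steps, the last from 40 cells and 20 UMIs. Hist1h1a reached 11.8 CPM in the highest step of MIM-Astrocyte cells, against 3.22 CPM at 0 UMIs, and 37.5 against 2.70 CPM in NSC. Hist1h1e reached 13.3 against 4.47 CPM in MIM-Astrocyte cells and 48.2 against 12.6 CPM in NSC. The NSC values of Hist1h1a and Hist1h1e in the highest step are from the same 40 cells, with 186754 UMIs of all genes, and are uncertain. Hist1h1e is also uncertain for its shared end windows.

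Hist1h2bc was lower in the higher steps of MIM-Astrocyte cells, at 1327, 1080, 742, 519 and 575 CPM, and so did Hist1h4i at 109, 84.4, 62.1, 39.5 and 37.0 CPM. Hist1h1c stayed between 41.2 and 57.5 CPM in all 5 steps. In NSC Hist1h2bc stood at 114, 181, 128, 42.9 and 69.6 CPM, the last 2 steps from 17 and 13 UMIs and with intervals of 24.998 to 68.7 and 37.1 to 119; whether the libraries differ in this was not tested. Deeper cells reach more UMIs of any gene: median depth was 2826.5 UMIs in the lowest step and 5316.5 in the highest step of MIM-Astrocyte cells.

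**Figure D5:**
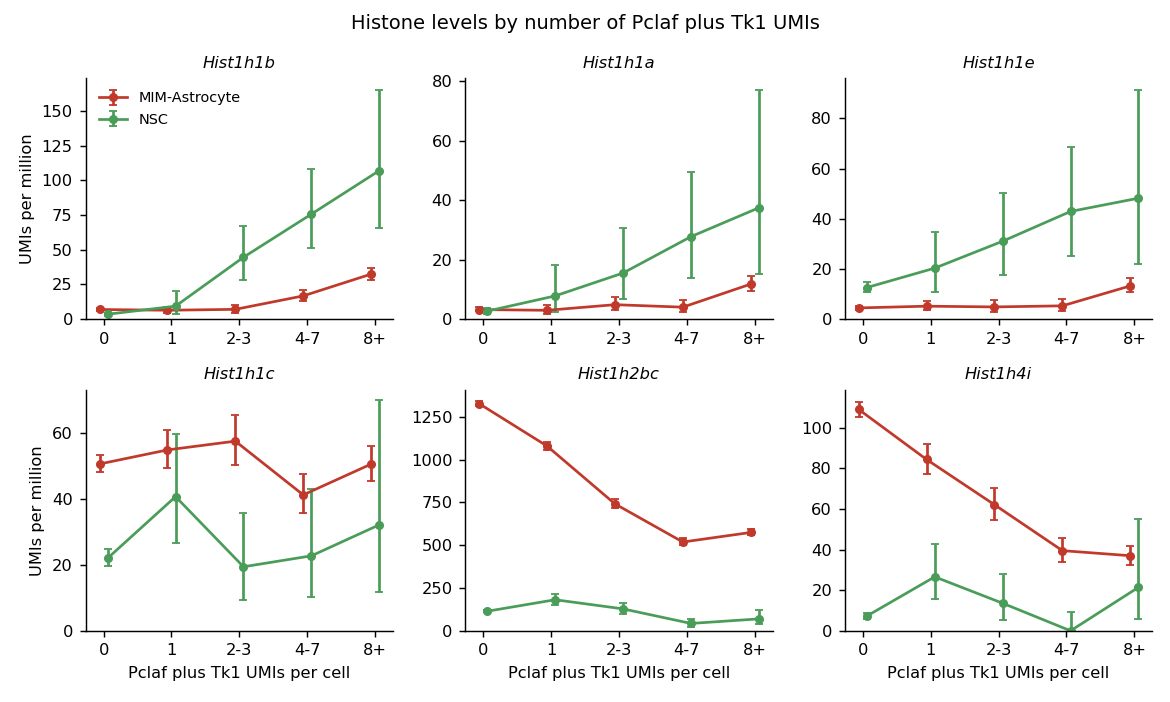
Level (CPM, 95% counting intervals) of 6 histone genes in cells grouped by their number of Pclaf plus Tk1 UMIs, in MIM-Astrocyte (red) and NSC (green) libraries. Hist1h1b reaches 32.5 and 107.1 in the highest step, and Hist1h2bc in MIM-Astrocyte cells is 575 there against 1327 at 0 UMIs.

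Cells were then split by both pairs of genes. In MIM-Astrocyte cells Hist1h1b stood at 22.7 CPM (20.3 to 25.4) with both pairs, 10.2 CPM (6.34 to 15.6) with Pclaf/Tk1 alone, 6.46 CPM (3.94 to 9.97) with Ube2c/Prc1 alone and 6.91 CPM (6.03 to 7.88) with neither. In NSC the same 4 groups stood at 76.4, 36.5, 17.3 and 3.35 CPM, with intervals of 17.5 to 67.2 and 7.47 to 34.1 for the middle pair, which overlap. Hist1h2bc in MIM-Astrocyte cells was lower in each group with cell cycle UMIs, at 563, 857 and 837 CPM with both, Pclaf/Tk1 alone and Ube2c/Prc1 alone, against 1325 CPM with neither. Hist1h1a and Hist1h1e in MIM-Astrocyte cells stood at 7.31 and 8.77 CPM with Pclaf/Tk1 alone, and at 2.91 and 4.52 CPM with Ube2c/Prc1 alone. These last values rest on few UMIs and are given without intervals, and whether the groups differ was not tested.

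With the Pclaf/Tk1 cells left out, the libraries were compared again. In MIM-Astrocyte over Astrocyte cells 31 were measured, 1 higher and 3 lower, against 6.95% and 15.3% of all genes. In Astrocyte cells over NSC 30 were measured, 7 higher and 3 lower (20.3% and 22.2% of all genes), and in MIM-Astrocyte cells over NSC 26 were measured, 6 higher and 3 lower (8.53% and 21.7%). Without Malat1 in the totals these became 7 and 5 in Astrocyte cells over NSC and 5 and 4 in MIM-Astrocyte cells over NSC, which TMM or DESeq2 scaling put at 10 and 1. Hist1h1b among these cells stood at 6.87 CPM in MIM-Astrocyte cells, 1.13 CPM in Astrocyte cells and 3.83 CPM in NSC, and was still 6.10-fold higher (4.55 to 8.29) in MIM-Astrocyte than in Astrocyte cells. Hist1h2bc stood at 1282 CPM in MIM-Astrocyte cells, 1056 CPM in Astrocyte cells and 117 CPM in NSC.

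Genes that make or handle histone mRNA and protein were read from 4 lists, for the biology around the histone genes. In Pclaf/Tk1 over other cells, histone mRNA processing genes had 3 of 17 measured called higher and 0 lower in the MIM-Astrocyte library and 2 of 16 higher and 0 lower in NSC. Over all measured genes 5.55% were called higher and 1.01% lower in the MIM-Astrocyte library and 4.2% and 3.49% in NSC. The 3 were Slbp at 54.9 CPM in Pclaf/Tk1 cells and 14.6 CPM in other cells (log2 ratio 1.84), the histone mRNA exonuclease Eri1 at 41.6 and 9.82 CPM (1.98), and Lsm11, a part of the U7 particle that cuts histone mRNA, at 4.66 and 1.02 CPM (1.48), named after their values were seen. The 2 in NSC were Slbp (1.68) and Eri1 (1.44). The 3 list members of highest level, the spliceosome proteins Snrpe, Snrpf and Snrpg, which are shared with the U7 particle, had log2 ratios of 0.77, 0.97 and 0.72 in the MIM-Astrocyte library, none called.

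Histone chaperones, which carry histones to and from DNA, had 11 of 22 measured called higher and 0 lower in MIM-Astrocyte Pclaf/Tk1 cells, and 4 of 17 and 0 in NSC, beside the same 5.55% and 4.2% higher of all genes; Nap1l1, the chaperone of highest level, stood at 1051 CPM in Pclaf/Tk1 cells and 478 CPM in other MIM-Astrocyte cells. Histone variant genes outside the clusters had 4 of 11 higher and 0 lower in both libraries, beside those shares. H2afz, which encodes the variant H2A.Z, stood at 6979 CPM in Pclaf/Tk1 cells and 1710 CPM in other MIM-Astrocyte cells, and at 3042 and 671 CPM in NSC, while H3f3a, for the variant H3.3, had log2 ratios of 0.21 and 0.23.

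Between libraries, MIM-Astrocyte over Astrocyte cells had 3 of 17 processing genes, 10 of 22 chaperones, 5 of 11 variants and 32 of 48 DNA replication genes called higher, and 0, 0, 1 and 1 lower, beside 8.49% higher and 15.2% lower of all genes. Astrocyte cells over NSC had 1, 0, 0 and 3 higher and 7 of 17, 8 of 22, 3 of 11 and 26 of 44 lower in the same lists, beside 19.9% and 22.6% of all genes, so the share of variants called lower was near that of all genes. MIM-Astrocyte cells over NSC had 0, 2, 4 and 19 higher and 2, 4, 2 and 1 lower, of 17, 22, 11 and 48 measured, beside 9.29% and 20.5% of all genes, and none of the 4 lists had a share called lower above that of all genes. Slbp itself stood at 27.0 CPM in MIM-Astrocyte cells, 23.6 CPM in Astrocyte cells and 17.6 CPM in NSC, and was called in none of these 3 comparisons.

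Near-identical copies limit how far single genes can be told apart. Of the 67 genes, 32 shared over 50% of the windows of 60 bases in their last 300 bases with another gene and 20 shared none, and 24 overlapped another annotated gene. None of the end windows of Hist1h2bc, Hist1h4i, Hist1h1c, Hist3h2ba, Hist3h2a, Hist1h1b and Hist1h1a occurred in another annotated transcript. For Hist1h4h 62.2% did. How the submitters' counting treated reads that match several genes is not given in the sources used here.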

How the data were processed

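The authors deposited a matrix of raw UMI counts per gene and cell for each of the 3 libraries; per the labels' protocols, methanol-fixed cells were run on a 10x system. The submitters' processing notes name mm10, Cell Ranger 3.0.2 and Seurat 3.1.1, with no roles. From these counts, cells with at least 200 genes and at most 20% mitochondrial UMIs were kept, which removed 13 MIM-Astrocyte, 7 Astrocyte and 12 NSC barcodes; each deposited barcode had at least 500 UMIs. No doublet caller was run; an alternative left out the 8% of cells with the most UMIs.

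UMIs were summed over the cells of a group and divided by its total (CPM; 50906724 UMIs in MIM-Astrocyte, 50594420 in Astrocyte and 14689259 in NSC cells), with exact Poisson intervals for levels, exact conditional binomial intervals for ratios and exact binomial intervals for shares (95%). Ratios used a pseudocount of 1 CPM on the log2 scale and a call at 2-fold over genes with at least 20 UMIs, and, between cell groups of 1 library, at least 5 expected UMIs in the smaller group. A sum of 0 was set to a floor of 3 counts for bounds. Genes with at least 500 UMIs were named one by one, with the 3 measured genes of highest and lowest log2 ratio in each comparison; other genes were named after their values were seen. Other lists were described by counts and their 3 genes of highest level. The members, lists and rules were chosen with earlier results of these data known. On simulated counts 92% to 98% of genes raised 4-fold and 79.2% to 93.0% of those lowered 4-fold, but 18% to 32% of genes raised 2-fold and 8.33% to 29.8% of those lowered 2-fold, were called in the 3 library comparisons and in MIM-Astrocyte Pclaf/Tk1 over other cells.

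Alternatives changed the totals, pseudocount, minimum, cells, cell call and scaling (edgeR 4.0.16 TMM, DESeq2 1.42.0 size factors, in R 4.3.3). Python 3.11.15 with numpy 2.4.6, pandas 2.3.3, scipy 1.17.1 and matplotlib 3.10.9 was used. Stem-loops were searched in GENCODE vM21 transcripts and motifs in RefSeq promoters of GRCm38.p6.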

Additional observations from a re-analysis of the deposited data

Results flagged for a closer look

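The ratio of Pclaf/Tk1 cells over other cells went opposite ways in the MIM-Astrocyte and NSC libraries for 3 sums of histone genes, each from 1 library, and the difference between the libraries was not tested. The log2 ratio of all 67 genes was −0.96 in the MIM-Astrocyte library and 0.55 in NSC. Without Hist1h2bc it was −0.39 in the MIM-Astrocyte library and 1.14 in NSC. For the H2a genes it was −0.32 in the MIM-Astrocyte library and 1.34 in NSC. Hist1h2bc, the gene with the most UMIs of all 67, and Hist3h2a, that of the H2a genes, had ratios under 1 in both libraries. For Hist3h2a in NSC, from 4 and 99 UMIs, the interval was 0.134 to 1.32. Hist1h4i had the most UMIs after Hist1h2bc in the MIM-Astrocyte library, 695 in Pclaf/Tk1 cells and 3685 in other cells. Its log2 ratio was −1.22 there and 0.27 in NSC, so the MIM-Astrocyte sum without Hist1h2bc also rests on Hist1h4i. A sum without both genes was not taken. Without Hist3h2a and Hist1h2ap, the ratio of the H2a genes was 1.32 (0.944 to 1.84) in the MIM-Astrocyte library and 4.82 (2.84 to 7.93) in NSC.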

How the results depend on the processing

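Over all settings tried, 2013 values of single genes and types were recomputed; 1670 moved by less than their counting interval, 343 by more, 0 called values turned to the opposite direction, 73 lost their call, 48 gained one and 58 uncalled values changed sign. No paired analysis was possible because each group has 1 library, and for the same reason no replicate could be left out. The counts of called genes moved by over 1.5 times as follows, and the cause was not tested where the setting does not itself reduce the cells or UMIs. The share of all genes called under each setting is not given beside these counts or those under other settings above. They are therefore not read as results about the histone genes. With a pseudocount of 10 CPM there were 0 higher and 1 lower in MIM-Astrocyte over Astrocyte, 2 and 0 in Astrocyte over NSC and in MIM-Astrocyte over NSC, and the same counts in these comparisons without Pclaf/Tk1 cells; Pclaf/Tk1 over other MIM-Astrocyte cells gave 0 higher and 2 lower. With 0.1 CPM there were 4 and 10, 15 and 7, and 11 and 11 in the 3 library comparisons, 3 and 8, 14 and 6, and 11 and 7 without Pclaf/Tk1 cells, and 4 higher in Pclaf/Tk1 over other MIM-Astrocyte cells. Totals without Malat1 gave 5 lower in MIM-Astrocyte over Astrocyte, 7 lower in Astrocyte over NSC (5 without Pclaf/Tk1 cells) and 6 lower in MIM-Astrocyte over NSC; totals without mitochondrial and ribosomal protein genes gave 7 lower in Astrocyte over NSC, and a minimum of 100 UMIs gave 2. TMM and DESeq2 scaling gave 2 higher in MIM-Astrocyte over Astrocyte, as did the mean of CPM per cell, and 1 lower in MIM-Astrocyte over NSC (10 higher and 1 lower without Pclaf/Tk1 cells). In Pclaf/Tk1 over other MIM-Astrocyte cells, the mean of CPM per cell and thinning to 1000 UMIs gave 1 higher, a call at 1 UMI gave 1 higher and 0 lower, a call from Rrm1, Rrm2, Dut and Tyms 1 and 1, and Pclaf/Tk1 cells with under 2 UMIs of Ube2c plus Prc1 0 and 1. In NSC no minimum gave 13 higher, leaving out the 8% deepest cells 0, thinning 0, a call at 1 UMI 4, a call at 4 UMIs 1 higher and 1 lower, a call from Rrm1, Rrm2, Dut and Tyms 1 and 1, and Pclaf/Tk1 cells with under 2 UMIs of Ube2c plus Prc1 0. Hist1h1b in Pclaf/Tk1 over other MIM-Astrocyte cells had a log2 ratio of 0.51 to 2.08 and kept its call in 14 of 16 settings, Hist1h2bc −1.29 to −0.58 in 13 of 16 and Hist1h4i −1.37 to −0.53 in 14 of 16. Hist1h1b in NSC kept its call in all 12 settings that measured it, at 2.47 to 4.11. The setting with under 2 UMIs of Ube2c plus Prc1 and all settings for cells outside the Pclaf/Tk1 group were chosen after seeing the data. By cell group 7 histone genes were measured in NSC and 23 in MIM-Astrocyte cells; depth, the number of Pclaf/Tk1 cells and the histone share of UMIs all differ between these libraries and cannot be told apart.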

Other observations

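Cells outside the Pclaf/Tk1 group were also split by markers of cell identity, where without means under 2 UMIs. Hist1h2bc stood at 1265 CPM (1249 to 1281) in the 6059 MIM-Astrocyte cells with at least 2 UMIs of the oligodendrocyte lineage genes Olig1, Olig2 and Pdgfra and at 1304 CPM (1287 to 1322) in the 5576 without. In Astrocyte cells it stood at 1045 CPM (1035 to 1055) in the 6925 cells with at least 2 UMIs of the astrocyte genes Gfap and Aqp4 and at 1089 CPM (1071 to 1107) in the 2893 without. In NSC it stood at 133 CPM (118 to 149) in the 1025 cells with at least 2 UMIs of the progenitor genes Hes5 and Egfr and at 114 CPM (108 to 121) in the 7789 without, and at 99.3 CPM (90.3 to 109) in the 2387 cells with the oligodendrocyte lineage genes and 126 CPM (119 to 133.8) in the 6427 without. Hist1h4i in Astrocyte cells stood at 305 CPM (299.8 to 311) with Gfap and Aqp4 and 312 CPM (303 to 322) without.

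Hist3h2ba stood at 18.3 CPM (16.4 to 20.3) with the oligodendrocyte lineage genes and 12.5 CPM (10.8 to 14.3) without in MIM-Astrocyte cells, and at 41.1 CPM (35.4 to 47.5) with them and 31.6 CPM (28.0 to 35.4) without in NSC. These groups also differ in depth, with median UMIs of 2945 with these genes and 2703.5 without in MIM-Astrocyte cells, and the part of depth was not tested.

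A second rule meant for replicating cells, at least 2 UMIs of Rrm1, Rrm2, Dut and Tyms, took 2809 MIM-Astrocyte cells, 424 Astrocyte cells (4.32%) and 171 NSC, so it took Astrocyte cells where Pclaf and Tk1 took none. The 424 cells had a median of 6074.5 UMIs, against 5089 in the whole Astrocyte library. That library held 7 UMIs of Pclaf, 5 of Tk1, 3 of Ube2c and 41 of Prc1. Whether the 424 cells replicate was not tested.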
